A study of Canis lupus familiaris and Eptesicus fuscus and Equus caballus with 6 samples.

Results

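The small RNAs of 29, 30 or 31 nt in adult testes of dog, big brown bat (Eptesicus fuscus) and horse are described here. Every sequence of these lengths in the deposited small RNA files was taken as a member, and identical sequences were summed. This gave 1467894 distinct sequences of 2937574 for dog, 337315 of 635917 for bat and 1849744 of 3971863 for horse, or 3654953 of 7545354 over the 3 libraries. Each species had 1 small RNA library of snap-frozen testis, so no difference between species has a replicate check, and the labels do not say whether tissue was pooled. The study asked how piRNAs target transposable elements in taxa that differ in element activity. The reads of these lengths numbered 30333644 for dog, 4169086 for bat and 24674324 for horse.

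piRNAs are small RNAs of the germ line that guide PIWI proteins to transposable elements and other transcripts. In mouse testis the longer piRNAs are carried by PIWIL1 (MIWI) and are made in large amounts from long precursor transcripts at the pachytene stage, whereas shorter ones are carried by PIWIL2 (MILI). A piRNA has a precisely cut 5-prime end that is mostly U, and a 3-prime end that is trimmed and therefore varies. No PIWI protein was isolated here, so length alone put a sequence in the class.

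The 5 most read sequences of each library are shown because they weigh most in the shares by reads. The files list many RNAs as their reverse complement, so each sequence was turned into RNA sense where its length variants allowed it, as described below. The capital marks the first base. The second dog sequence and the fourth horse sequence could not be oriented and are printed as listed.

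Dog 1, 29 nt, 421092 reads: Uuaaugaccuucauggacgccucugaccc
Dog 2, 30 nt, 383916 reads: Uuggagacagaacaggaucuaacuugggcc
Dog 3, 30 nt, 294260 reads: Ggugcccgucauggccuaacauaaccugaa
Dog 4, 29 nt, 271435 reads: Uuguaagcucuugagcaccggaacagccu
Dog 5, 29 nt, 234467 reads: Auucaaccaaugcucuuugaaugccgacc
Bat 1, 29 nt, 253037 reads: Uugcguuuucuggaccuagaacugucaga
Bat 2, 31 nt, 62291 reads: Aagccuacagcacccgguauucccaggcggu
Bat 3, 30 nt, 45523 reads: Ugucugcuggaccaaguucucuuguucagg
Bat 4, 31 nt, 45500 reads: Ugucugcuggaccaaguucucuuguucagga
Bat 5, 30 nt, 38170 reads: Aagccuacagcacccgguauucccaggcgg
Horse 1, 30 nt, 310724 reads: Uaagaccagacuucaaacccacucaagagu
Horse 2, 29 nt, 198768 reads: Ugagaaguucguuaggaugucgcacuccu
Horse 3, 30 nt, 177129 reads: Ugagaaguucguuaggaugucgcacuccug
Horse 4, 29 nt, 172044 reads: Gcucucaggucucagguucacauuuagca
Horse 5, 30 nt, 145470 reads: Uaugaaguaagggaaagcuuucugaagccu

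These sequences made up between 0.773 and 1.39% of the class reads in dog, 0.916 and 6.07% in bat, and 0.590 and 1.26% in horse. The leading bat sequence alone held 6.07% of the class (exact 95% binomial interval 6.05 to 6.09%), more than any other sequence of the 3 libraries. Bat 2 and 5 share a 5-prime end as oriented and differ by 1 base at the 3-prime end. Their reverse complement has the letters of the 3-prime end of 5S rRNA, a ribosomal RNA (recognised from textbook knowledge, not matched to a reference here). A fragment that stops at the fixed 3-prime end of its RNA is read backwards by the orientation rule, so this family counts below as beginning with A. It was read most at 32 nt, and the first-base share without such families is given below.

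The class held most of the reads but about as many distinct sequences as all other lengths together. It made up 73.4% of the listed reads for dog (73.38 to 73.41%), 71.5% for bat (71.49 to 71.56%) and 68.9% for horse (68.85 to 68.88%), against 18.0, 18.1 and 21.1% for 26 to 28 nt. Of the distinct sequences, 49.97% for dog, 53.0% for bat and 46.6% for horse had these lengths. A member was read 20.7 times on average in dog, 12.4 times in bat and 13.3 times in horse, and a sequence of 26 to 28 nt 6.76, 5.37 and 5.03 times. These means depend on depth, and the class had more reads, so the gap is not one at equal depth. Distinct sequences at equal depth are given below. Since the files list only 24 to 32 nt, the shares are of those lengths and not of whole libraries.

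Reads fell at both edges of the class, and also within it. In dog, 29 nt held 29.1% of all reads and 28 nt 10.7%, while 31 nt held 13.3% and 32 nt 6.71%. Bat had 28.9% at 29 nt beside 9.78% at 28 nt, and 14.1% at 31 nt beside 4.81% at 32 nt. Horse had 21.1% at 29 nt beside 9.04% at 28 nt, and 16.9% at 31 nt beside 5.87% at 32 nt. The 30 nt length held 30.9% of all reads for dog, 28.6% for bat and 30.8% for horse. In each library the fall from 30 to 31 nt was larger in percentage points than that from 31 to 32 nt. Within the class the 3 lengths were not weighted alike in the 3 libraries. The 29 nt form took 39.7% of the class reads for dog, 40.4% for bat and 30.7% for horse. The 30 nt form took 42.2, 39.9 and 44.8%, and the 31 nt form 18.1, 19.7 and 24.6%, so that the horse class was shifted toward its longer members.

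In no library did a member and its reverse complement both appear. A sequence was therefore oriented by its length variants, linked to the most read sequence with the same first or last 24 nt. It was kept as listed where 80% or more of the variant reads of that leading sequence (10 or more reads) had its first 24 nt in common, and turned round where 80% or more had its last 24 nt in common. Which bases a sequence holds plays no role. In this way a direction was given to 57.0% of the class reads for dog, 63.6% for bat and 53.1% for horse, but only 14.9, 16.1 and 14.96% of the distinct members, so that oriented values describe the better read families. Of the oriented reads, 48.0, 47.4 and 51.9% were reversed. Distinct members kept as listed and distinct members reversed began with U almost equally often, at 50.1 and 49.8% in dog, 57.4 and 57.0% in bat, and 56.2 and 57.3% in horse. By reads these shares were 74.5 and 64.9% in dog, 68.0 and 83.2% in bat, and 80.8 and 77.8% in horse. At 26 to 28 nt they were 75.1 and 64.9% in dog, 64.8 and 74.0% in bat, and 78.7 and 76.1% in horse. Why the shares by reads differ was not tested.

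Most oriented reads of the class began with U. The share was 69.9% for dog (69.85 to 69.90%), 75.2% for bat (75.17 to 75.28%) and 79.3% for horse (79.25 to 79.30%), where the mean U share over positions 2 to 29 was 24.7, 26.8 and 24.1%. G began 12.8% of dog reads, 10.3% of bat reads and 9.34% of horse reads, A began 11.6, 10.9 and 6.51%, and C began 5.63, 3.64 and 4.88%. At 26 to 28 nt the U share was 69.85% for dog, 68.9% for bat and 77.4% for horse. The class thus stood 0.0208 percentage points above the shorter sequences in dog, 6.31 points in bat and 1.87 points in horse. In dog this lies within the counting intervals of the 2 shares. All intervals cover counting error of PCR copies only.

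The first base changed with length by a different amount in each library. In dog, U began 71.3% of the reads at 29 nt, 67.9% at 30 nt and 70.9% at 31 nt. In horse the shares were 81.3, 79.1 and 77.2%. In bat they were 84.5, 73.6 and 59.3%, a wider span than in the other libraries. Over distinct bat members the shares at 29, 30 and 31 nt were 57.0, 55.9 and 59.6% and showed no such span. At 32 nt U began 16.1% of dog reads, 33.6% of bat reads and 55.6% of horse reads. Over distinct oriented sequences of 32 nt the shares were 52.4, 61.2 and 60.5%. The most read sequence alone held 47.5, 24.7 and 7.43% of the listed 32 nt reads. Without the 10 most read 5-prime ends of the class, which held 26.7% of its oriented reads in bat, U began 80.6, 81.3 and 73.5% of the bat reads at 29, 30 and 31 nt. Without families read most at 32 nt the class shares were 70.8% for dog, 78.6% for bat and 80.5% for horse.

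Counted once per sequence or once per 5-prime end, U was less frequent, and here the pooled class lay below the shorter sequences in the 3 libraries. Over distinct members U began 49.97% for dog (49.8 to 50.2%), 57.2% for bat (56.8 to 57.7%) and 56.8% for horse (56.6 to 57.0%), against 55.1, 60.8 and 59.2% at 26 to 28 nt. Over 5-prime ends, defined by the first 24 nt of an oriented sequence, U began 42.3% of 118675 ends for dog, 47.8% of 29962 for bat and 47.9% of 149285 for horse, against 47.3, 52.3 and 51.4% at 26 to 28 nt. Neither unit showed the excess over the shorter sequences that the reads of bat and horse showed.

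The share of U depended on how often a member was read. Among oriented members with 1 read it was 36.1% for dog, 35.1% for bat and 39.4% for horse. Members with 2 to 9 reads had 48.4, 58.5 and 57.2%, and members with 10 to 99 reads 62.4, 76.4 and 73.0%. With at least 100 but under 1000 reads the shares were 68.6% for dog (67.7 to 69.4%), 81.8% for bat (80.3 to 83.3%) and 79.8% for horse (79.1 to 80.5%). With at least 1000 but under 10000 reads they were 68.9, 75.7 and 81.9%. Of the members with at least 10000 reads, 146 of 191 began with U in dog (76.4%, 69.8 to 82.3%) and 96 of 121 in horse (79.3%, 71.0 to 86.2%), but 17 of 27 in bat (63.0%, 42.4 to 80.6%). The interval in bat is wide and overlaps those of the other libraries. A at position 10 was counted over the same groups whatever the first base. It lay between 33.9 and 36.6% in dog, 25.9 and 30.04% in bat, and 31.1 and 32.2% in horse. Members not beginning with U were not split into these groups. Position 10 held A in 36.6% (dog), 29.8% (bat) and 35.1% (horse) of those with at least 2 reads. Over all members not beginning with U it held A in 35.5, 28.5 and 34.0%.

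Beyond the first base, a few other positions stood apart from the rest, though not in every library or count. Over distinct members, position 5 held A in 31.5% for dog, 29.2% for bat and 34.2% for horse, and by reads in 39.2, 27.5 and 47.6%. By reads position 5 did not stand apart in bat, where positions 14 and 18 held A in 32.4 and 32.5%. Position 2 held U in only 13.2% of the horse reads, beside 23.9% in dog and 25.9% in bat. The last base was rarely G in dog and horse, at 13.4 and 13.5% of the reads and 19.4 and 18.9% of the distinct members. In bat it was G in 23.9% of the reads and 22.5% of the members. The base before the last was G in 53.4% of the bat reads but in 30.2% of the bat members. At 29, 30 and 31 nt alone it was G in 57.6, 50.3 and 50.6% of the bat reads. Each of the 5 bat sequences shown above has G before its last base as printed. Of these, Bat 2 and 5 belong to the family described above as read backwards. The weight of the 5 sequences in these values was not tested. A stood last in 29.05% of the distinct members for dog, 24.8% for bat and 27.8% for horse, without the excess that U had at the first base.

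A at position 10 is the mark of secondary piRNAs in the ping-pong cycle, in which a piRNA that begins with U guides the cut that makes its partner on the other strand. Among oriented distinct members that did not begin with U, position 10 held A in 35.5% of 109665 for dog (35.2 to 35.8%), 28.5% of 23173 for bat (27.9 to 29.04%) and 33.997% of 119545 for horse (33.7 to 34.3%). Averaged over positions 5 to 9 and 11 to 15, A made up 28.4, 26.5 and 28.6% of the bases in these members. The excess was therefore 7.11 percentage points for dog, 1.92 for bat and 5.38 for horse. In bat position 5 came close, at 28.1%. Sequences of 26 to 28 nt had an excess of 5.99, 1.61 and 5.19 points, a little lower in each library. Those of 32 nt had a higher excess than the class, at 12.4, 2.14 and 7.55 points. In bat, position 13 of these held A more often (32.4%) than position 10 (29.1%).

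Members that did begin with U had a smaller excess of A at position 10 in each library. Position 10 held A in 34.0% of them for dog, 25.4% for bat and 29.8% for horse, an excess over the neighbours of 5.83, 0.454 and 1.84 points. Position 5 exceeded position 10 among these in bat (29.96%) and horse (36.2%), and in dog it came to 33.6%. By length, the excess in members not beginning with U was 6.44 points at 29 nt, 6.999 at 30 nt and 8.35 at 31 nt in dog, and 5.14, 5.40 and 5.65 in horse. In bat it was 1.89, 2.50 and 1.04 points and followed no order.

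Ping-pong partners overlap by 10 nt at their 5-prime ends. Pairs of complementary oriented members were counted at each overlap from 10 to 24 nt, judged on 10 nt, and the count at 10 nt was divided by the median at 11 to 24 nt. In dog 413902 pairs overlapped by 10 nt, 2.80 times the median, each pair being counted from both of its sides. The ratio was 1.22 in bat (10568 pairs) and 4.47 in horse (1188113 pairs). The next highest overlap was 11 nt in dog (1.33) and horse (2.23) and 24 nt in bat (1.15). Horse kept ratios of 1.73, 1.88 and 1.54 at 12, 13 and 14 nt, whereas dog was at 1.23, 1.09 and 1.02. The same count made on the 3-prime ends gave ratios of 1.002 for dog and 1.02 each for bat and horse. Pairs share sequences and are not independent, so no interval is given.

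The excess was found within each length and between length classes. Within 29, 30 and 31 nt alone the ratio was 2.56, 2.71 and 3.43 in dog, 1.30, 1.17 and 1.22 in bat, and 5.20, 4.18 and 4.12 in horse. Within 26 to 28 nt it was 2.70, 1.31 and 4.58 in dog, bat and horse. Between members and sequences of 26 to 28 nt it was 2.77, 1.25 and 4.56. These counts are not independent of the class count, because the lengths mostly share their 5-prime ends, as given below. The count between classes was not made with 1 sequence per end. Within 32 nt it was higher than in the class, at 5.36, 1.44 and 6.18, from only 191 pairs in bat. With 1 sequence per 5-prime end the ratio in the class was only 1.24 for dog, 1.09 for bat and 1.56 for horse, against 1.35, 1.09 and 1.82 at 26 to 28 nt. There the highest other overlap was 1.09 in dog and 1.32 in horse. In bat it was 1.11, above the value at 10 nt. At 26 to 28 nt the highest other overlap in bat was 1.16, also above its value at 10 nt. Within 29, 30 and 31 nt taken alone, with 1 sequence per end, the bat ratio was 1.27, 1.18 and 1.22. The highest other overlap was 1.15, 1.13 and 1.12, so these single lengths showed an excess in bat that the pooled class did not. Where 95% of variant reads had to lie on one end, the ratio was 5.89 for dog, 1.87 for bat and 6.72 for horse.

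Few starts carried most of the pairs in dog and horse. The 100 starts of 10 nt with most pairs held 54.5% of the pairs for dog, 22.7% for bat and 81.3% for horse. For each library, the pair of complementary starts with most pairs is shown by the most read member on each side, with the 10 nt that pair in capitals.

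Dog, side a, 3263 reads: UCACAGAGGAagacauagacauggccaac
Dog, side b, 264 reads: UCCUCUGUGAgauuucuguucaugucuuu
Bat, side a, 1142 reads: UCUAGUUGUAggacuuccguucagccaga
Bat, side b, 18 reads: UACAACUAGAgaauuaaaggggaagccaca
Horse, side a, 7454 reads: UUCUAGUUGUggcaugugggacgcugccu
Horse, side b, 946 reads: ACAACUAGAAgaacccacagcgaagaauac

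In horse, 615 members with the first of these starts (43696 reads, 89 ends) faced 285 with the second (4828 reads, 42 ends), and they held 29.5% of the 10 nt pairs of the library. In dog 165 members (11309 reads) faced 67 (830 reads) and held 5.34%. In bat 38 members (3761 reads) faced only 3 (21 reads) and held 2.16%. Side a was defined as the more read start of each pair. Both dog and both bat starts begin with U, and in horse 1 side begins with A. Over all 10 nt pairs, both partners began with U in 54.9% of the pairs for dog, 29.2% for bat and 31.9% for horse, and 1 of them did in 38.1, 52.5 and 63.0%. A partner of a member that begins with U has A at position 10 by construction. No genome was used, so complementarity past the 10 nt and the elements behind these starts were not analysed here.

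Reads were spread very unevenly over members. In dog 50% of the class reads lay in the 1398 most read members (0.0952% of them), in bat in 912 (0.270%) and in horse in 3569 (0.193%). The 1000 most read members held 46.3% of the class reads for dog, 51.0% for bat and 36.0% for horse, against 40.6, 43.9 and 25.2% for the 1000 most read sequences of 26 to 28 nt. The 10 most read held 8.25, 14.0 and 6.11%. In bat the first alone gave much of this. At the other end, 54.5% of the members for dog, 61.8% for bat and 57.6% for horse were read once, and these held 2.64, 4.997 and 4.32% of the class reads.

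The class held fewer distinct sequences than 26 to 28 nt at equal depth. In 1000000 reads drawn from each class, 174831 distinct members would be expected for dog, 137826 for bat and 230321 for horse, against 260100, 189412 and 353654 distinct sequences of 26 to 28 nt. Horse had the most distinct members at this depth and bat the fewest. The inverse Simpson index, an effective number of sequences that weighs the most read ones, did not have the same order in each library. It was 849 for the class and 792 for 26 to 28 nt in dog, 204 and 761 in bat, and 1534 and 2648 in horse. Members with at least 10000 reads numbered 301 for dog, 30 for bat and 191 for horse and held 33.6, 20.5 and 21.1% of the class reads. These numbers follow the depth of each library and are not compared between species.

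Collected by 5-prime end, oriented class reads were also spread unevenly. These values cover oriented reads only, which come from the better read families, and are not set against those of all members. A 5-prime end had 146 class reads on average for dog, 88.5 for bat and 87.8 for horse, but a median of 6, 5 and 5. The 1000 most read ends held 66.1, 75.5 and 56.7% of the oriented class reads, and 50% of them lay in 268 ends for dog, 113 for bat and 608 for horse. At 26 to 28 nt an end had 41.3, 24.8 and 25.5 reads on average, from fewer oriented reads. At 1000000 oriented reads, 50995 class ends would be expected in dog and 66246 in horse, against 58628 and 84104 ends at 26 to 28 nt, so that the classes lie much closer at equal depth. The oriented bat reads of 26 to 28 nt were too few for this depth. An end was present at all 3 lengths of the class in 23.0% of cases for dog, 25.5% for bat and 25.8% for horse, and these ends held 87.6, 86.9 and 88.8% of the oriented reads.

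The most read ends differed in how sharply 1 length led. The end of Bat 1 had 253037 reads at 29 nt, 17377 at 28 nt, 542 at 30 nt and 38 at 31 nt, so that 90.6% of its reads had the leading length. The end of Dog 1 had 46596 reads at 28 nt, 421092 at 29 nt, 55132 at 30 nt and 156107 at 31 nt, with a dip at 30 nt between 2 more frequent lengths. The most read end of horse, that of Horse 2 and 3, had 56332 reads at 28 nt, 198768 at 29 nt, 177129 at 30 nt and 3554 at 31 nt. The end of Bat 3 and 4 was split nearly evenly, with 45523 reads at 30 nt and 45500 at 31 nt. The end of Horse 1 had 14481 reads at 29 nt, 310724 at 30 nt and 31750 at 31 nt.

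Over the ends with at least 10 reads, the leading length typically took a little more than the other lengths together. In ends led by 30 nt it held a median of 59.3% of the reads for dog (quartiles 47.9 and 74.1%), 55.1% for bat (44.7 and 69.2%) and 53.6% for horse (42.9 and 67.3%). In these ends 12.9, 12.1 and 13.6% of the pooled reads were 1 nt shorter and 7.51, 13.2 and 10.1% were 1 nt longer. Ends led by 29 nt held 39.9% of the oriented class reads for dog, 38.5% for bat and 25.6% for horse, ends led by 30 nt held 36.1, 38.7 and 45.7%, and ends led by 31 nt held 17.4, 14.0 and 21.0%. Ends led by 32 nt held 1.88, 5.28 and 3.25%, and ends led by 26 to 28 nt 4.51, 3.19 and 4.02%.

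The base next to the 3-prime end of the leading length can be read from longer variants where these exist. In ends led by 31 nt, the following base was U in 33.3% of 3816 ends for dog, 30.6% of 1129 for bat and 33.3% of 7347 for horse. In ends led by 30 nt it was U in 30.1, 27.6 and 29.02%, and in ends led by 29 nt in 25.6, 26.1 and 23.2%. The last base of the leading length was G in 18.4, 17.3 and 14.6% of the dog ends led by 29, 30 and 31 nt, in 21.6, 22.4 and 18.6% of the bat ends and in 16.2, 15.9 and 13.0% of the horse ends. The base before it was G in 30.02, 28.3 and 27.4% in dog, 38.4, 34.2 and 36.4% in bat, and 29.7, 30.6 and 31.6% in horse. In each library and at each of these leading lengths G was less frequent at the last base than at the base before it. These base shares are over the ends that had a variant 1 nt longer.

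Members and shorter sequences mostly began at the same places. Of the class ends, 53.8% for dog, 56.1% for bat and 56.4% for horse were also ends of 26 to 28 nt sequences, and of the ends at 26 to 28 nt, 67.6, 67.6 and 66.7% were class ends. The shared ends held 96.3, 97.3 and 96.03% of the oriented class reads and 96.7, 96.5 and 95.4% of the oriented reads of 26 to 28 nt. Orientation needs length variants, which favours shared ends in these shares. Of the oriented reads of 26 to 28 nt, 45.7% for dog, 52.1% for bat and 51.6% for horse sat at ends read most at 29 to 31 nt. Shared ends began with U in 55.6, 63.4 and 62.1%, and class ends without shorter sequences in 26.8, 27.9 and 29.5%.

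Many 5-prime ends had a neighbouring end, which for most of the best read ones held few reads. Another class end began 1 nt downstream on the same strand for 51.2% of the ends for dog, 48.1% for bat and 46.6% for horse, and 8 nt downstream for 11.3, 12.3 and 10.9%. For the 1000 most read ends, the end 1 nt downstream had a median of 0.566% of their reads for dog, 0.405% for bat and 0.422% for horse, and the end 1 nt upstream 0.430, 0.349 and 0.377%. Pooled over these ends, 7.68 reads for dog, 25.5 for bat and 6.67 for horse began 1 nt downstream per 100 reads of the ends themselves, and 13.9, 29.6 and 12.1 began 1 nt upstream. The pooled values lie far above the medians.

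Few distinct members were common to the species, but they held a larger share of the reads. On either strand 1702 members were found in both dog and bat (0.116% of dog members, 0.505% of bat members), 6466 in dog and horse (0.440 and 0.350%) and 1770 in bat and horse (0.525 and 0.0957%). By reads, the members common to dog and bat held 1.47% of the dog class and 6.56% of the bat class. Those common to dog and horse held 2.39 and 2.89%, and those common to bat and horse 6.85 and 2.05%. Of the 896 found in the 3 libraries, the one with the largest summed share of class reads was Bat 2, with 62291 reads in bat, 292 in dog and 376 in horse. Its reverse complement, the strand with the letters of 5S rRNA, is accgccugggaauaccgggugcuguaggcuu. The third in this order, a 30 nt sequence named after its values were seen, had 48118 reads for dog, 4918 for bat and 122226 for horse, and has the letters of the 5-prime end of tRNA-Gly-GCC (recognised, not matched to a reference here).

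tRNA-Gly-GCC fragment, 30 nt, 122226 reads in horse: Gcauuggugguucagugguagaauucucgc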

How the data were processed

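Small RNA of adult testis was sequenced from dog, bat and horse, 1 library each. The raw read counts per sequence were deposited by the authors and are used without scaling. Bowtie, RSEM and the build CanFam3.1 are named in the submitters' processing notes for every sample. Their roles, the trimming, and the build used for bat and horse were not given in the sources used here. Identical sequences were summed, which merged 23684 rows for dog, 447 for bat and 17284 for horse.

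Totals were 41328689 reads for dog, 5828928 for bat and 35830283 for horse, all of 24 to 32 nt. A floor of 3 reads is 9.89e-06% of the class reads for dog, 7.20e-05% for bat and 1.22e-05% for horse. Intervals (Clopper-Pearson, 95%) and floors cover counting error only. Orientation used 24 shared nt, 10 variant reads and 80% on one end. Distinct sequences at equal depth came from exact rarefaction. Scripts ran in Python 3.11.15 with numpy 2.4.6, pandas 2.3.3 and SciPy 1.17.1 and were tested on simulated data.

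With 1 library per species no test was made. Named sequences are the 5 most read members of each library, the most read 5-prime ends, the complementary starts with most pairs and the most read shared sequences. The class, the lists and the orientation rule were chosen with earlier results of these data known. The mRNA files were not used here.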

Additional observations from a re-analysis of the deposited data

Results flagged for a closer look

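The 10 nt overlap ratio of the 29 to 31 nt members minus that of the 26 to 28 nt sequences had a different sign between the libraries. It was 0.0964 for dog (2.80 against 2.70), -0.0949 for bat (1.22 against 1.31) and -0.119 for horse (4.47 against 4.58). The difference was not tested, since each species had 1 library. With 1 sequence per 5-prime end the difference was -0.108 for dog, -0.0014 for bat and -0.255 for horse.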

How the results depend on the processing

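Values are in the order dog, bat and horse. By distinct sequences in place of reads, the class share was 49.97, 53.0 and 46.6%, and the first-base U share 49.97, 57.2 and 56.8%. With sequences taken as listed, the U share was 53.2, 51.1 and 49.0%, the overlap ratio 1.15, 1.09 and 1.29, and A at position 10 31.3% in dog and 30.2% in horse. With 95% of variant reads on one end, which oriented 27.8, 28.2 and 26.3% of the class reads, the U share was 76.4, 86.5 and 85.5%, the overlap ratio 5.89, 1.87 and 6.72, reads per 5-prime end 198, 102 and 118, and A at position 10 35.9% in dog. With variants of 29 to 31 nt only, the U share was 71.7, 76.0 and 78.7% and reads per end 242, 135 and 166.

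With sequences of at least 2 reads, A at position 10 was 36.6, 29.8 and 35.1% and the share of the 1000 most read sequences 47.6, 53.7 and 37.6%. The 1000 most read 5-prime ends held 66.1, 75.5 and 56.7% of the oriented class reads. With 1 sequence per end the overlap ratio was 1.24, 1.09 and 1.56. Further settings were chosen after seeing the data. With 1 sequence per end, A at position 10 was 32.9% in dog and 32.1% in horse, and without self-complementary starts the overlap ratio was 1.24, 1.08 and 1.56. Without the 10 most read ends the U share was 70.6, 79.6 and 79.2%, and without ends read most at 32 nt 70.8, 78.6 and 80.5%. Of 57 values under other settings, 4 stayed within the counting interval of the reported value. The other 53 were counted as moved. They lay outside that interval or, as for overlap ratios and reads per 5-prime end, had none. Why they moved was not tested.

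Oriented values rest on well-read families, which holds for the U share, position 10, overlap and 5-prime ends. Leaving out a replicate was not possible with 1 library per species. No paired analysis was possible because each species had 1 small RNA library.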

Other observations

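The starts that held most 10 nt pairs in bat and in horse contain a common run of 9 bases, UCUAGUUGU, which lies 1 base further from the 5-prime end in horse. The run, and the further starts named here, were chosen after their values were seen. The leading starts of dog share at most 3 bases in a row with those of bat or horse. In horse the starts with the second most pairs, which held 7.505% of them, were ACUAGAAGGA (241 members, 3890 reads) and UCCUUCUAGU (185 members, 837 reads). The third pair, UAAGUUCGCA (268 members, 3780 reads) and UGCGAACUUA (166 members, 1602 reads), held 7.49%. No element sequence was used, so which elements hold these letters was not analysed here.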
